A study of Danio rerio with 12 samples.

Results

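Transportin 3, the product of the zebrafish gene tnpo3, is the nuclear import receptor that carries SR proteins from the cytoplasm into the nucleus. SR proteins bind exons through their RNA recognition domains and recruit the spliceosome to the neighbouring splice sites, so that the exon between them is kept in the mRNA. They also act on their own transcripts, because SR genes carry alternative exons and introns whose use keeps the amount of each protein in balance.

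Compared here are 3 libraries of tnpo3-/- embryos with 3 libraries of wild-type (wt) control embryos, which are 6 of the 12 libraries of the study. The groups were taken from the sample titles, and the values from the skipped-exon, retained-intron and gene expression tables that hold tnpo3 mutants and controls. Total RNA came from whole embryos of Danio rerio and was sequenced from stranded libraries depleted of ribosomal RNA, and the mutants came from screens for genes of early T cell development. The 3 tnpo3 mutant libraries are all of mixed background C, whereas the controls hold 1 library each of mixed backgrounds A, B and C, so genotype and strain background cannot be told apart. Stage, the nature of the tnpo3 allele and whether a library is a single embryo or a pool are not known from the labels used. All p-values below therefore measure only the spread between these libraries.

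The skipped-exon table held 28035 events in 11890 genes, with 17351145, 18300285 and 15711487 junction reads in tnpo3 mutants and 16340782, 18650509 and 17386249 in controls. The retained-intron table held 744 events in 675 genes, with 440976 to 534644 reads per library in tnpo3 mutants and 464001 to 533354 in controls. As a check of the tissue label, summed junction reads of muscle genes, scaled to library size as CPM, were 129085 to 158204 in tnpo3 mutants and 123779 to 147723 in controls, and those of neuronal genes were 6890 to 7080 and 6785 to 7307. Genes of lens, liver, intestine, pancreas, erythroid and cartilage lists were also present in both groups, as whole embryos should hold.

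The tnpo3 transcript itself was lower in the mutants. Its junction reads came to 8.58, 5.11 and 7.43 CPM in tnpo3 mutants, against 27.8, 25.05 and 26.6 CPM in controls, which is −1.94 ± 0.20 on the log2 scale (SE, limma adjusted p = 0.00272). All 3 mutant libraries thus lay below all 3 controls, although this measure rests on a single event. Some tnpo3 RNA remained in each mutant library. A 163 bp tnpo3 intron at chr4:12660448-12660610 (build Zv9) was retained in 18.6%, 42.1% and 23.6% of transcripts in tnpo3 mutants, against 7.13%, 7.65% and 9.09% in controls, a difference that did not pass the test (limma adjusted p = 0.297).

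Most exons called as changed in tnpo3 mutants were skipped more often than in controls. Inclusion is the share of junction reads, corrected for the lengths of both forms, that join an exon to its neighbours rather than skip it. An exon was called at a limma adjusted p below 0.05 and a difference of mean inclusion of at least 10 percentage points. Of 27050 exons tested in 11459 genes, 500 exons in 435 genes fell in tnpo3 mutants (1.85% of the exons tested) and 12 rose (0.0444%). Without the minimum difference, 1578 exons were lower and 31 higher at an adjusted p below 0.05. The groups did not overlap for 487 of the 512 calls, but the thresholds favour such exons, so this is no separate support. Over all tested exons, the groups did not overlap for 2792 that were lower and 336 that were higher. By a difference of at least 10 percentage points alone, without a test, 1662 exons were lower and 413 higher. Rises thus made up a larger share by these measures than among the calls, and their rarity among the calls depends on the test. The model mattered for the call. A quasi-binomial model of the counts, which estimates the spread of each exon alone, called 0 exons, with 2909 lower and 202 higher at an unadjusted p below 0.05.

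The lean towards skipping was also present in the means over all tested exons. Mean inclusion was 91.9%, 91.8% and 91.8% in the tnpo3 mutant libraries, against 93.6%, 93.6% and 93.7% in the control libraries. The difference was −1.81 percentage points, between group means of 91.8% ± 0.0490 and 93.6% ± 0.0202 (SD, n = 3 each, two-sided exact permutation p = 0.1; no smaller p exists for 3 libraries a side). Of all tested exons 75.9% were lower in tnpo3 mutants, with a median difference of −0.591 points. An exon was tested only if some library skipped it. For 14597 exons every control library was at 100% inclusion, so that the difference could only be below 0. For 3775 exons every tnpo3 mutant library was at 100%, so that it could only be above 0. The share of 75.9% and the means above include these exons and are no separate support. The difference in mean exon inclusion per library was smaller when exons were weighted by their reads, at −0.391 points, and close to 0 for the exon at the median of each library, at −0.00453 points.

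Long exons were called lower more often than short ones. Of the exons that fell, 62% were below 200 bp, as were 85.6% of all tested. Of 929 exons over 500 bp, 79 (8.50%) were called lower, and their mean inclusion was 91.1% ± 0.419 in tnpo3 mutants and 95.8% ± 0.0373 in controls (SD, n = 3 each). Of 701 exons above 300 and up to 500 bp, 48 (6.85%) were called lower, with means of 90.9% ± 0.343 and 94.8% ± 0.251. At the other end, 1 of 638 exons of 30 bp or less was called lower (0.157%), and their mean inclusion was 69.9% ± 0.264 in tnpo3 mutants and 69.0% ± 0.462 in controls. The share called lower went up at each step between these classes, through 0.280%, 1.1%, 1.21%, 1.5%, 2.35% and 2.77%. Depth went with the calls as well: 2.14% of exons with 10 to under 50 reads a library were called lower, 2.94% with 50 to under 200, 0.878% with 200 to under 1000 and 0.236% with 1000 or more. The 2 longest classes had medians of 144 and 118.5 reads per exon and library, against 173.8 over all tested exons, and the part of depth in the length pattern was not tested.

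**Figure D1:**
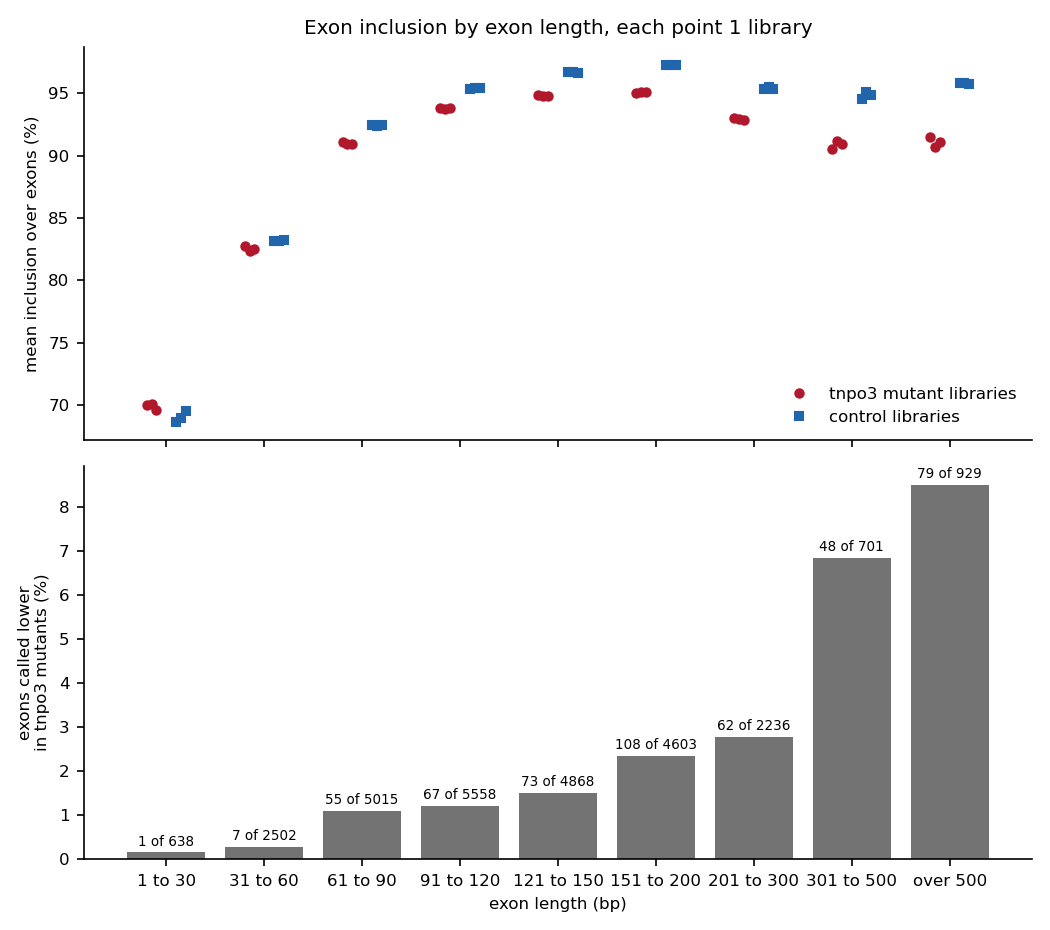
Mean inclusion of tested exons by exon length in each tnpo3 mutant library (red circles) and each control library (blue squares), above, and the percentage of exons of that length called lower in tnpo3 mutants, below. The axis of the upper plot does not start at 0. The share called lower was 0.157% for exons of 30 bp or less and 8.50% for exons over 500 bp, and only in the shortest class did the tnpo3 mutant libraries lie above the controls.

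The exons that fell had a median length of 168 bp, against 120 bp over all tested exons and 64 bp for the 12 that rose. Exons of 300 bp or more made up 25.4% of those that fell and 6.07% of all tested. Reading frame and flanking introns differed less. The exon length was a multiple of 3 in 44.6% of the exons that fell and 47.1% of all tested, and the median flanking introns were 1760 bp before and 1926 bp after the exon, against 2086 bp and 2020 bp. Of the exons that fell, 54.6% were included in every transcript read in the controls, against 54.0% of all tested, and the median fall was 18.1 points.

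Among exons averaging 20 or more reads a library, most of the largest falls were in exons that all or nearly all control transcripts carried. A large fall in points needs a high inclusion in controls, and the median control inclusion of all tested exons was 100%. A 2148 bp exon of si:ch211-198m17.1 at chr3:38717446-38719593 was included at 35.6%, 34.0% and 31.2% in tnpo3 mutants, against 100% in each control (limma adjusted p = 5.30e-05). A 1047 bp exon of SPTBN5, which encodes a beta spectrin of the membrane skeleton, at chr17:29187081-29188127 was at 49.4%, 32.2% and 27.5% in tnpo3 mutants, against 100% in each control (limma adjusted p = 7.55e-05). A 662 bp exon of si:dkey-222b8.4 at chr19:24377302-24377963 was at 30.6%, 37.7% and 19.3% in tnpo3 mutants, against 100% in each control (limma adjusted p = 0.000822). In these genes most mutant transcripts skipped an exon that no control read skipped.

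A 728 bp exon of eme1, whose product is the partner of the DNA structure-specific endonuclease Mus81, was included at 27.5%, 57.8% and 30.7% in tnpo3 mutants, against 100% in each control (limma adjusted p = 0.00147). A 526 bp exon of SNAPC2, a subunit of the complex that drives snRNA transcription, was at 28.6%, 62.6% and 29.7% in tnpo3 mutants, against 100%, 94.4% and 100% in controls (limma adjusted p = 0.00116). A 355 bp exon of adamts13, the protease of von Willebrand factor, was at 20%, 30% and 51.5% in tnpo3 mutants, against 100%, 98.5% and 100% (limma adjusted p = 0.000608). The groups stood well apart in each of these, while the mutant libraries differed among themselves by over 30 points.

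Among transcription regulators, a 140 bp exon of pax9, known from mice as a regulator of the pharyngeal pouches and the thymus, was included at 43.2%, 52.9% and 38.5% in tnpo3 mutants, against 100% in each control (chr17:38408370-38408509, limma adjusted p = 0.00108). A 1636 bp exon of LRIF1, a chromatin protein that binds heterochromatin protein 1, was at 16.6%, 20.1% and 39.0% in tnpo3 mutants, against 100% in each control (limma adjusted p = 0.0147). The remaining exons among the 12 largest falls were in XKR5 (184 bp, 37.0% ± 17.5 in tnpo3 mutants and 98.1% ± 3.30 in controls), CACNA1F, a retinal calcium channel (130 bp, 34.5% ± 20.7 and 89.9% ± 8.79), and si:ch211-262n1.5 (320 bp, 25.3% ± 5.33 and 86.9% ± 12.2; SD, n = 3 each). The LRIF1, CACNA1F and si:ch211-262n1.5 calls were lost without at least 1 of the libraries (limma adjusted p up to 0.0894, 0.106 and 0.0881). The last of the 12, a lonp2 exon, rested on 1 read in all tnpo3 mutant libraries together, and its value of 0% there says little.

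**Figure D2:**
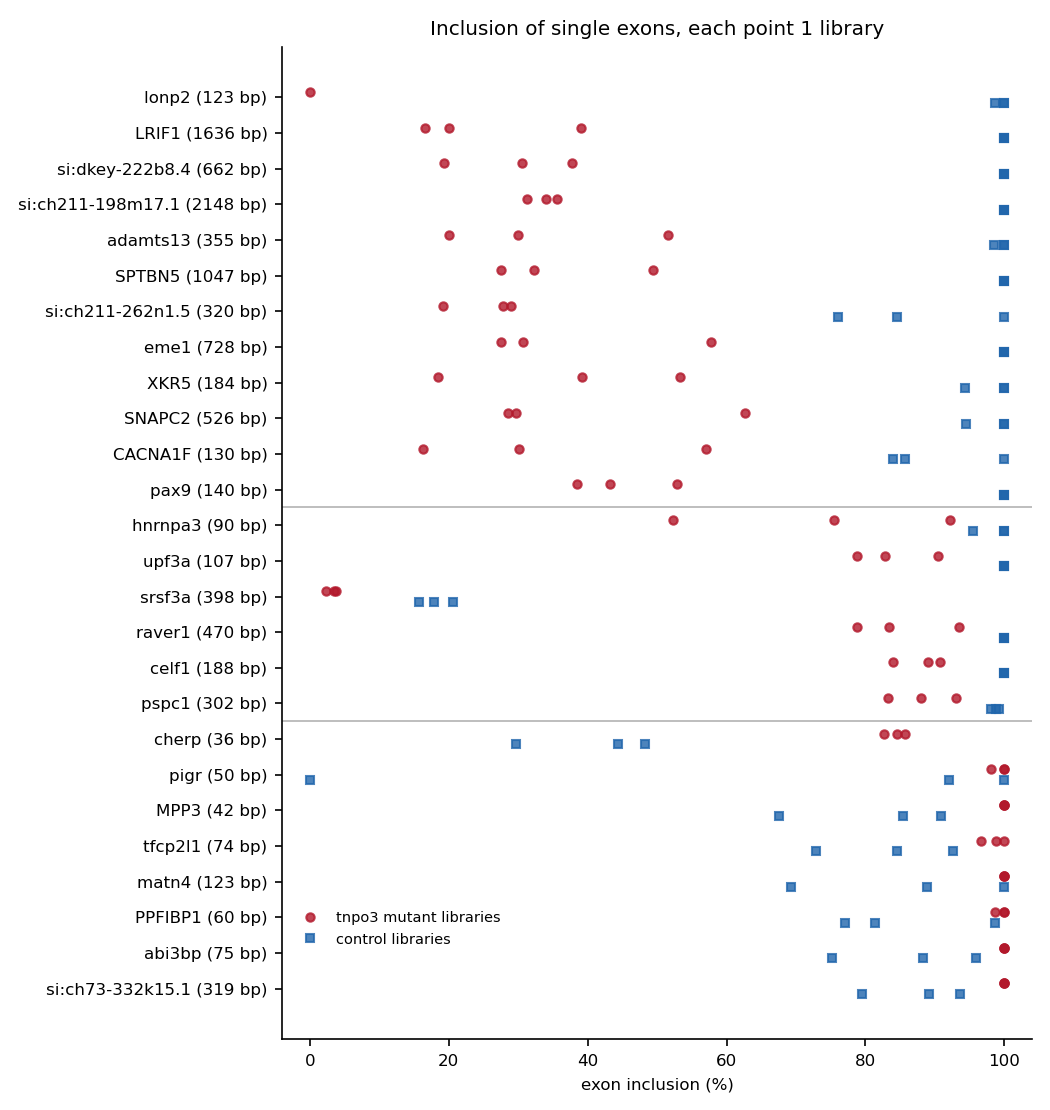
Inclusion in percent of the 12 exons that fell most, of the called exons in SR protein, hnRNP, tissue splicing regulator and exon junction complex genes, and of the 8 exons that rose most (from top to bottom, set apart by lines). Each red circle is a tnpo3 mutant library and each blue square a control library, with the exon length in brackets, and libraries without reads are not drawn. Inclusion was at or near 100% in the controls for most exons that fell, srsf3a being at 15.8% to 20.6%, and cherp showed the widest gap among those that rose.

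In the SR protein genes, 1 of 25 tested exons was called. A 398 bp exon of srsf3a at chr6:41013078-41013475 was included at 3.70%, 3.46% and 2.32% in tnpo3 mutants, against 20.6%, 15.8% and 17.9% in controls, a difference of −2.76 on the scale of log2 odds (SE 0.70, limma adjusted p = 0.0276). All mutant libraries lay below all controls, but the adjusted p was between 0.0509 and 0.154 whenever 1 library was left out. Whether this exon holds a stop codon was not tested, because no genome of this build was used. Other SR exons had lower values in tnpo3 mutants without passing the test, or passing it with under 10 points. A 169 bp exon of srsf6b was at 13% ± 2.90 in tnpo3 mutants and 36.7% ± 7.21 in controls (SD, n = 3 each, limma adjusted p = 0.147), an exon of srsf11 at 9.08% ± 2.58 and 20.5% ± 3.05 (limma adjusted p = 0.362), and a 156 bp exon of srsf3a at 92.7% ± 6.69 and 100% ± 0 (limma adjusted p = 0.0213). The tnpo3 mutant libraries stood at 92.0%, 99.7% and 86.4% for this srsf3a event. A second event of the same 156 bp exon, with a longer intron after it, was at 99.9% ± 0.134 in tnpo3 mutants and 100% ± 0 in controls (limma adjusted p = 0.915). A 39 bp exon of srsf7a lay the other way, at 76.9% ± 0.917 in tnpo3 mutants and 64.7% ± 2.48 in controls (limma adjusted p = 0.605). So did an 81 bp exon of srsf11, at 68.2% ± 12.5 and 54.6% ± 4.32 with overlapping groups (limma adjusted p = 0.645).

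Of the list of SR-related proteins and SR kinases, 2 of 98 tested exons fell. A 111 bp exon of rsrc1, an RS-domain splicing protein, was included at 73.5%, 70.1% and 72.7% in tnpo3 mutants, against 100%, 86.8% and 100% in controls (limma adjusted p = 0.0182). A 177 bp exon of scaf4a, whose product binds the tail of RNA polymerase II, was at 87.8%, 80.4% and 85.1% in tnpo3 mutants, against 100%, 100% and 98.5% (limma adjusted p = 0.00198). The rsrc1 call was lost without any 1 of the tnpo3 mutant libraries or of the control libraries in positions 1 and 3 (adjusted p up to 0.121), while the scaf4a call held whichever library was left out.

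Other RNA-binding proteins had a few skipped exons. Of 237 tested exons of hnRNP and tissue splicing regulator genes 4 fell: a 470 bp exon of raver1, a cofactor of polypyrimidine tract binding protein (85.2% ± 7.55 in tnpo3 mutants and 100% ± 0 in controls, limma adjusted p = 0.00993), a 188 bp exon of celf1 (87.9% ± 3.50 and 100% ± 0, limma adjusted p = 0.0119), a 302 bp exon of the paraspeckle gene pspc1 (88.1% ± 4.92 and 98.7% ± 0.612, limma adjusted p = 0.0176) and a 90 bp exon of hnrnpa3 (73.3% ± 20 and 98.5% ± 2.56, limma adjusted p = 0.0415; SD, n = 3 each). Each of these 4 calls was lost without at least 1 of the libraries, with adjusted p-values up to 0.0568 for raver1, 0.0659 for celf1, 0.115 for pspc1 and 0.182 for hnrnpa3 by limma. Some uncalled exons of this list, picked after their values were seen, lay higher in tnpo3 mutants. They were an 870 bp exon of rbm4.1 (85.3% ± 2.25 in tnpo3 mutants and 56.0% ± 3.31 in controls, limma adjusted p = 0.0893), a 39 bp exon of elavl3 (86.8% ± 0.954 and 65.1% ± 5.65, limma adjusted p = 0.191) and a 60 bp exon of ptbp2b (86.2% ± 7.86 and 68.2% ± 2.39, limma adjusted p = 0.269). The median difference of the list was −0.502 points. Of 18 exons of exon junction complex and nonsense-mediated decay genes, 1 fell, a 107 bp exon of the decay factor upf3a at 90.5%, 82.8% and 78.8% in tnpo3 mutants, against 100% in each control (limma adjusted p = 0.00143). None of 69 core spliceosome exons and none of 77 exons of nuclear import and export receptors was called. Some exons of both lists passed the adjusted p with under 10 points, and those that passed were lower in tnpo3 mutants. Among them were exons of txnl4a (91.7% ± 8.16 in tnpo3 mutants and 99.8% ± 0.303 in controls, limma adjusted p = 0.00472) and ipo4 (93.2% ± 2.78 and 100% ± 0, limma adjusted p = 0.00225). These shares of 4%, 2.04%, 1.69%, 5.56%, 0% and 0% stand beside 1.85% for all tested exons, each resting on 4 calls or fewer.

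Genes of cell division and DNA repair also held skipped exons, at 4 of 133 tested exons of the mitosis and cell cycle list (3.01%), 6 of 145 of the DNA repair list (4.14%) and 2 of 41 of the p53 pathway list (4.88%), beside 1.85% of all tested exons. The 857 bp exon of rev3l, the catalytic subunit of DNA polymerase zeta, was included at 83.1%, 76.6% and 78.9% in tnpo3 mutants, against 100% in each control (limma adjusted p = 0.000237). In gtse1, a microtubule-associated regulator of p53, exons of 628 bp and 375 bp were at 62.6% ± 13.5 and 79.3% ± 1.35 in tnpo3 mutants, against 100% ± 0 for both in controls (SD, n = 3 each, limma adjusted p = 0.00111 and 0.00325). The spindle gene prc1a had a 159 bp exon at 86.1%, 86.5% and 81.5% in tnpo3 mutants, against 100% in each control (limma adjusted p = 0.00141). These 4 exons kept their call whichever library was left out.

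The eme1 exon described above is also on the DNA repair list and kept its call whichever library was left out. The other 7 called exons of these lists lost their call without at least 1 of the libraries. They lie in cdt1, which licenses replication origins (150 bp, 64.4% in tnpo3 mutants and 95.8% in controls), the spindle gene nusap1 (78 bp, 75.3% and 97.8%), the kinase gene pkmyt1, an inhibitor of Cdk1 (215 bp, 84.3% and 100%), the end-joining gene xrcc4 (142 bp, 72.7% and 98.0%), the nuclease scaffold gene slx4 (147 bp, 81.6% and 100%), the uracil glycosylase gene unga (96 bp, 83.4% and 99.1%) and UIMC1, known in human cells as RAP80 (501 bp, 80.2% and 100%). For UIMC1 the groups overlapped, since 1 tnpo3 mutant library stood at 100% beside 2 at 71.9% and 68.7%. The highest adjusted p with 1 library left out was 0.236 for UIMC1 and 0.0660 for nusap1.

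Skipping also reached genes of differentiated tissues. The 243 bp exon of crygmxl2, a gamma crystallin of the lens and with a mean of 4163 reads per library the most deeply read of the exons named here, was included at 75.5%, 76.2% and 67.4% in tnpo3 mutants, against 100%, 99.9% and 100% in controls (limma adjusted p = 5.30e-05). Of 14 lens exons 3 fell (21.4%, beside 1.85% of all tested exons), one of them in lim2.5, a lens membrane protein gene, at 86.3% ± 8.25 in tnpo3 mutants and 99.6% ± 0.755 in controls (SD, n = 3 each). In ttr, the carrier of thyroid hormone made by the liver, 2 overlapping exon forms of 140 bp and 136 bp were at 64.3% ± 7.34 and 76.9% ± 5.25 in tnpo3 mutants, against 94.8% ± 8.77 and 96.8% ± 5.41 in controls. In the muscle and neuronal lists the shares lay below that of all tested exons, with 1 of 337 muscle exons (0.297%), a 111 bp exon of the titin gene ttna at 82.8% ± 6.45 in tnpo3 mutants and 100% ± 0 in controls, and 2 of 366 neuronal exons (0.546%), which are alternative events of the glutamate receptor gene gria1b. The muscle list leaves out the sarcomere protein gene myoz2b, of which 5 of 12 tested events fell. The part of depth in these shares was not tested. With 1 library left out, the crygmxl2 and ttna calls held in every fit, whereas those of lim2.5, ttr and gria1b were lost in some or all. None of 41 T lymphocyte and thymus exons and none of 42 photoreceptor exons was called.

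Of the 4 intestine exons that fell, 3 lie in cyp3c4, whose transcript was nearly absent from tnpo3 mutants. Their inclusion there rests on few reads. The groups overlapped for 2 of them, and 1 tnpo3 mutant library had no read of the third. Without the tnpo3 mutant library in position 3, the differences of 2 of them turned to 0.70 and 1.37 points above the controls. The fourth is an 88 bp exon of the guanine deaminase gene gda, at 88.7% ± 7.97 in tnpo3 mutants and 99.8% ± 0.323 in controls (SD, n = 3 each, limma adjusted p = 0.00250). A 141 bp exon of rbpjl, a transcription factor of pancreatic acinar cells, was at 73.2% ± 20.4 in tnpo3 mutants and 100% ± 0 in controls (limma adjusted p = 0.0397, and 0.0575 to 0.135 with 1 library left out). Several exons of a gene fell in myoz2b, a sarcomere protein gene with 5 called events over 3 distinct exons, in acsbg1 with 4, and in taz and lztfl1 with 3 events each.

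Of the 12 exons that rose, 11 were below 200 bp (91.7%), as were 85.6% of all tested exons. A 36 bp exon of cherp, known from human cells to associate with U2 snRNP, at chr22:4628654-4628689 was included at 82.7%, 85.8% and 84.5% in tnpo3 mutants, against 48.3%, 44.3% and 29.7% in controls, a difference of 2.94 on the scale of log2 odds (SE 0.71, limma adjusted p = 0.0197). The groups did not overlap, though the adjusted p reached 0.151 with 1 library left out. A 42 bp exon of MPP3, a membrane scaffold gene, was at 100% in each tnpo3 mutant library, against 67.6%, 90.9% and 85.4% in controls (limma adjusted p = 0.00799). The other rises with at least 20 reads were in tfcp2l1 (74 bp, 98.5% ± 1.71 in tnpo3 mutants and 83.3% ± 9.94 in controls), abi3bp (75 bp, 100% ± 0 and 86.5% ± 10.5), si:ch73-332k15.1 (319 bp, 100% ± 0 and 87.4% ± 7.19), matn4 (123 bp, 100% ± 0 and 86.0% ± 15.6), PPFIBP1 (60 bp, 99.5% ± 0.799 and 85.7% ± 11.4) and pigr (50 bp, 99.4% ± 1.11 and 64.0% ± 55.6; SD, n = 3 each). None of the 8 named rises kept its call in every fit with 1 library left out. The groups overlapped for matn4, PPFIBP1 and pigr, the last with control values of 100%, 92.0% and 0%.

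No intron passed the thresholds. Of 675 introns tested in 612 genes, 0 were called (0%), and limma gave 58 at an unadjusted p below 0.05, 16 of them higher and 42 lower, with a smallest adjusted p of 0.114. A quasi-binomial model also called 0, with 7 higher and 40 lower at an unadjusted p below 0.05, while 31 had a deposited FDR below 0.05 with 10 points or more. Mean retention was 37.1% ± 0.382 in tnpo3 mutants and 38% ± 0.608 in controls (SD, n = 3 each, two-sided exact permutation p = 0.1). The difference of −0.865 points lay on the side of less retention, with 425 introns below the controls and 250 above.

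Among SR protein introns the differences lay in both directions, none past the threshold. A 654 bp intron of srsf1b at chr21:38404389-38405042 was retained at 95.9%, 96.8% and 97.1% in tnpo3 mutants, against 85.3%, 80.5% and 86.3% in controls (limma adjusted p = 0.114). An 88 bp intron of srsf9 was at 2.65%, 4.74% and 2.69% in tnpo3 mutants, against 14.7%, 11.8% and 10.6% in controls (limma adjusted p = 0.211). The srsf7a intron of 107 bp was at 25.8% ± 0.816 in tnpo3 mutants and 38.3% ± 3.14 in controls, and that of srsf5a, of 1102 bp, at 32.2% ± 4.41 and 42.2% ± 3.02 (SD, n = 3 each, limma adjusted p = 0.510 and 0.562). The values of these introns are given as a description only. With 3 libraries a side, groups can separate by chance, and how many of all tested introns did so was not counted.

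The largest intron differences at an unadjusted p below 0.05 were uneven between libraries. An 86 bp intron of the trehalase gene treh was retained at 83.3%, 100% and 71.4% in tnpo3 mutants, against 11.1%, 39.1% and 6.98% in controls (limma adjusted p = 0.292), with a mean of 12.3 reads per library. A 107 bp intron of crip1 was at 3.81%, 1.86% and 3.71% in tnpo3 mutants, against 100%, 77.6% and 4.31% in controls (limma adjusted p = 0.428). For gas5, a host gene of small nucleolar RNAs, a 174 bp intron was at 100%, 16.8% and 100% in tnpo3 mutants, against 17.5%, 15.5% and 22.9% (limma adjusted p = 0.510). The others by this rule were phc1 at 11.8% in tnpo3 mutants and 66.8% in controls, C6H1orf159 at 11.5% and 37.5%, and si:ch73-196i15.3 at 99.02% and 71.8%. The phc1 event is by far the shortest of these, and whether it is a spliced intron at all was not tested.

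Junction reads summed per gene give a measure of transcript amount for genes with a skipped-exon event. A gene was called when its limma adjusted p lay under 0.05 and its log2 fold change was 1 or more either way. Of 11500 genes tested, 123 fell (1.07%) and 26 rose (0.226%) in tnpo3 mutants, while at an adjusted p below 0.05 alone 253 were lower (2.2%) and 117 higher (1.02%). Leaving out 1 library moved the number called to 81 and 76 without the tnpo3 mutant libraries in positions 2 and 3 and to 93 without the control library in position 1. Those that rose numbered 16, 15 and 11 without the tnpo3 mutant libraries in positions 1, 2 and 3, and 54 without the control library in position 2. Of the 435 genes with an exon that fell, 17 were called lower (3.91%, against 1.07% of all genes) and 3 higher (0.690%, against 0.226%) by junction reads, and their median log2 fold change was −0.12, against 0.00 over all genes. These sums were not corrected for the lengths of both forms, and a read may count in several events of a gene. Where the longer inclusion form gathers more reads, skipping lowers the sum at an unchanged transcript amount. How far this enters the values of these 435 genes was not tested.

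The SR protein genes leaned upward. Junction reads of srsf1b were 100.4, 89.4 and 103.9 CPM in tnpo3 mutants, against 36.1, 38.4 and 33.9 CPM in controls, which is 1.44 ± 0.11 on the log2 scale (SE, limma adjusted p = 0.000361), and this gene alone of the 10 measured passed both thresholds. Beside 1.02% of all genes higher at an adjusted p below 0.05, a further 5 SR genes passed the adjusted p with less than 1 on the log2 scale. They were srsf3b at a log2 fold change of 0.69 (limma adjusted p = 0.0137), srsf6b at 0.68 (0.0285), srsf3a at 0.63 (0.0399), srsf7a at 0.49 (0.0415) and srsf2a at 0.46 (0.0430). The srsf3a reads came to 291, 415 and 302 CPM in tnpo3 mutants, against 213, 213 and 214 CPM in controls, with all mutant libraries above all controls. With 1 library left out, the limma adjusted p was 0.0557 to 0.0939 for srsf3a, 0.0652 to 0.142 for srsf7a, 0.0557 to 0.135 for srsf2a, 0.0291 to 0.101 for srsf6b and 0.0256 to 0.0519 for srsf3b, so that none of these 5 passed in every fit. The other 4, srsf11 at 0.24, srsf5a at 0.15, srsf6a at 0.06 and srsf4 at −0.16, did not pass, and srsf6a changed sign without either the tnpo3 mutant or the control library in position 1, reaching −0.08. Together the 10 genes held 1229 to 1426 CPM per tnpo3 mutant library and 884 to 980 CPM per control library, with a list median of 0.47.

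**Figure D3:**
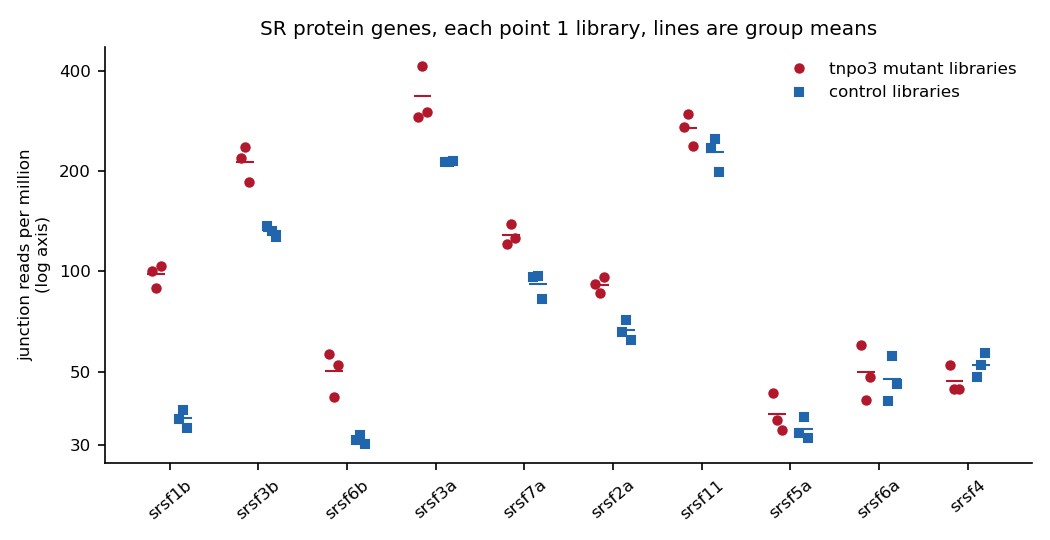
Junction reads (CPM) of the 10 SR protein genes measured, on a log axis, in each tnpo3 mutant library (red circles) and control library (blue squares), with lines at the group means and genes ordered by log2 fold change. The 3 tnpo3 mutant libraries lie above all controls for srsf1b, srsf3b, srsf6b, srsf3a, srsf7a and srsf2a, the widest gap being that of srsf1b at 89.4 to 103.9 against 33.9 to 38.4 CPM. With 3 libraries a side, groups can separate by chance, and how many of all genes did so was not counted.

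Of 41 SR-related and SR kinase genes, 0 were called and 1 passed the adjusted p, the splicing activator gene tra2a at a log2 fold change of 0.62 (59.9, 72.2 and 71.7 CPM in tnpo3 mutants, against 43.5, 42.5 and 46.0 CPM in controls, limma adjusted p = 0.0208). Of 38 core spliceosome genes 0 were called and 0 passed the adjusted p, with a median of 0.10. Of 72 hnRNP and tissue splicing regulator genes 0 were called, while 5 were lower and 1 higher at an adjusted p below 0.05, among the lower ones hnrnpd at −0.62 (limma adjusted p = 0.0181) and hnrpl at −0.49 (limma adjusted p = 0.0205). Of all genes 2.2% were lower and 1.02% higher at that threshold. The adjusted p of tra2a, hnrnpd and hnrpl reached 0.0842, 0.0730 and 0.0792 with 1 library left out. Of 33 nuclear import and export receptors tnpo3 alone was called. The import receptor gene ipo8 was at 32.6, 35.6 and 37.2 CPM in tnpo3 mutants, against 16.7, 15.4 and 27.0 CPM in controls, without passing the test (log2 fold change 0.88, limma adjusted p = 0.0567).

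A part of the mitosis genes rose. Of 55 measured genes of the mitosis and cell cycle list, 8 were called higher and 0 lower, beside 0.226% and 1.07% of all genes. At an adjusted p below 0.05 alone, 17 were higher and 1 lower, beside 1.02% and 2.2% of all genes. The mitotic kinesin kif11 was at 32.6, 36.5 and 36.8 CPM in tnpo3 mutants, against 12.9, 17.1 and 14.8 CPM in controls, which is 1.25 ± 0.14 on the log2 scale (SE, limma adjusted p = 0.00430). The other spindle and cytokinesis genes called were kif2c at 1.4, prc1b at 1.32, INCENP at 1.21, anln at 1.19, nusap1 at 1.12 and prc1a at 1.05 on the log2 scale. The eighth was cdkn1ba, an inhibitor of cyclin-dependent kinases, at 49.3, 73.5 and 59.5 CPM in tnpo3 mutants, against 13.2, 10.6 and 8.76 CPM in controls, which is 2.48 ± 0.19 on the log2 scale (SE, limma adjusted p = 0.000432). The list summed to 1883 to 2154 CPM per tnpo3 mutant library and 1442 to 1725 CPM per control library, with a median of 0.42. Of 19 measured genes on the p53 pathway list, cdkn1ba, which is on both lists, was the only one called. No other gene of that list passed the adjusted p. The spindle gene hmmr, outside the lists, rose by 1.62 (limma adjusted p = 0.000432).

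The deepest falls included many genes of the digestive organs, and the counts below stand beside 1.07% lower and 0.226% higher of all genes. In bulk samples, fewer cells of a type and less RNA per cell cannot be told apart. Of 20 exocrine pancreas genes measured, 10 were called lower and 0 higher, with a list median of −2.10. The elastase ela2 was at 192, 169 and 116 CPM in tnpo3 mutants, against 1762, 2023 and 1423 CPM in controls, which is −3.47 ± 0.21 on the log2 scale (SE, limma adjusted p = 0.000432), and the pancreatic amylase amy2a at 45.0, 31.6 and 39.1 CPM, against 271.9, 202.5 and 249.9 CPM (log2 fold change −2.65, SE 0.15, limma adjusted p = 9.83e-05). The list summed to 2899 to 3735 CPM in tnpo3 mutants and 11362 to 14253 CPM in controls. Near-identical copies among the elastases, trypsins and chymotrypsins can share reads, so single members are uncertain.

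Of 24 intestine genes 7 were called lower and 0 higher, with a median of −1.01 and sums of 2193 to 2781 CPM in tnpo3 mutants and 3733 to 5705 CPM in controls. The cytochrome P450 gene cyp3c4 was at 0.847, 0.689 and 1.51 CPM in tnpo3 mutants, against 43.9, 40.04 and 38.4 CPM in controls, the deepest fall of all calls at −5.36 on the log2 scale (SE 0.28, limma adjusted p = 7.00e-05). A second cytochrome P450 gene, cyp2n13, fell by 3.30, the brush border proteases mep1a.1 and anpepa fell by 2.55 and 1.34, and the microvillus gene vil1 fell by 1.03 on the log2 scale. Of 28 photoreceptor genes 4 were called lower and 0 higher, with a median of −0.50, among them the rod transducin gnat1 at −1.70 (7.90, 15.2 and 13.6 CPM in tnpo3 mutants, against 44.5, 29.8 and 42.0 CPM in controls, limma adjusted p = 0.0175) and gnb3b at −1.09 (limma adjusted p = 0.00430). Of 19 liver genes 1 was called lower, cyp2ad2 at −3.01, and of 11 myeloid genes 1, the neutrophil gene npsn at −1.17 (limma adjusted p = 0.0459 and 0.0205). With 1 library left out, the cyp2ad2 call was lost in 5 of 6 fits (limma adjusted p up to 0.131) and the npsn call in 4 of 6 (up to 0.0715). The calls of cyp2n13, mep1a.1, anpepa, vil1 and gnat1 were each lost without at least 1 of the libraries, while those of cyp3c4 and gnb3b held.

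Other tissues showed no calls. Among 67 muscle, 77 neuronal, 23 cartilage, 12 lens and 8 erythroid genes 0 were called in either direction, beside 1.07% lower and 0.226% higher of all genes. In lists this short, 0 calls do not set a tissue apart from all genes. At an adjusted p below 0.05 alone, 1 muscle gene was higher and 3 lower, 1 neuronal gene was lower and 1 cartilage gene higher. Of all genes 1.02% were higher and 2.2% lower at that threshold. The T lymphocyte and thymus list, the cell type the screen was built on, had 17 genes measured, 0 called and a median of −0.12, with sums of 538 to 552 CPM in tnpo3 mutants and 553 to 569 CPM in controls. Many members of that list are also expressed elsewhere in a whole embryo. The log2 fold changes of the list ran from −1.58 for ptprc to 0.59 for ikzf1, with 8 of the 17 genes above 0. The leukocyte gene ptprc, its lowest member, was read at 1.07, 0.172 and 0.242 CPM in tnpo3 mutants, against 1.13, 0.714 and 1.83 CPM in controls (limma adjusted p = 0.296). Whether a change confined to the thymus would be seen in whole-embryo RNA was not tested.

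**Figure D4:**
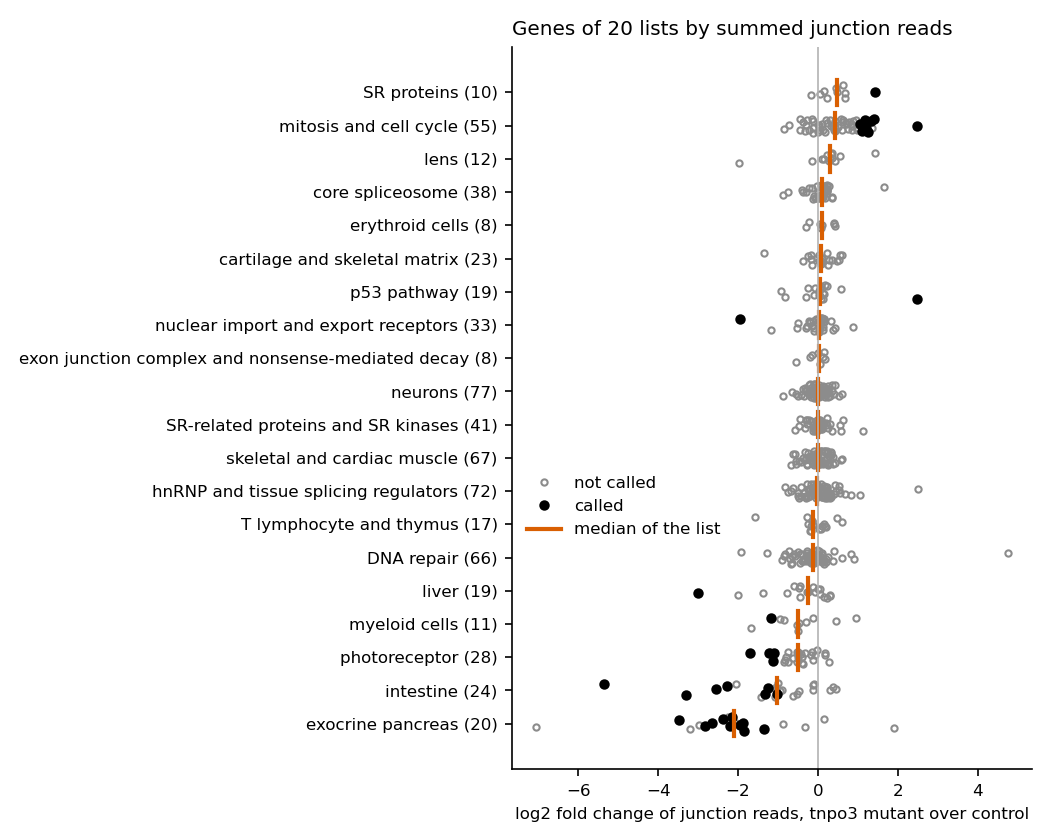
Log2 fold change of summed junction reads, tnpo3 mutant over control, for each measured gene of 20 lists, with the number of genes in brackets. Filled points passed the limma test with at least 1 on the log2 scale, open points did not, and orange bars are list medians. The medians run from −2.10 for exocrine pancreas to 0.47 for SR proteins, and the filled points lie left of 0 in the digestive, liver, myeloid and photoreceptor lists and right of 0 in the mitosis list.

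Outside the lists, the deepest falls by rule included PFKFB1, an enzyme of glycolytic control, at a log2 fold change of −4.39 on 6, 2 and 0 reads in tnpo3 mutants, and PTGR1, a prostaglandin reductase, at 0.960, 0.918 and 1.93 CPM in tnpo3 mutants, against 16.1, 10.5 and 28.0 CPM in controls (log2 fold change −3.78, SE 0.41, limma adjusted p = 0.00512). The complement gene bfb at −3.19 and the nuclear receptor gene nr5a5 at −2.80 were at under 10 CPM in every library. The largest rises were those of CU929219.1 and of msh4, a gene of meiotic recombination. Junction reads of msh4 came to 2.202, 2.58 and 3.74 CPM in tnpo3 mutants, against 0, 0.165 and 0.166 CPM in controls, too few control reads for a fold change. The kinase gene ptk2ba was at 8.30, 6.95 and 7.61 CPM in tnpo3 mutants, against 1.26, 2.53 and 1.11 CPM in controls (log2 fold change 2.3, SE 0.33, limma adjusted p = 0.00970). RBM33 rose by 2.5, STPG2 by 2.09, C17H14orf1 by 1.54 and tecta by 1.46 on the log2 scale. The RBM33, STPG2 and tecta calls were lost without any 1 of the tnpo3 mutant libraries (limma adjusted p up to 0.0881, 0.0664 and 0.0718). Those of PFKFB1, nr5a5, ptk2ba and C17H14orf1 were each lost without at least 1 of the libraries.

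The authors' deposited table for tnpo3 mutants, made from all reads of a gene and holding no values per library, holds 115 genes, of which 38 were higher and 77 lower in the mutants. Of these, 47 could be set beside junction reads of the same libraries: all 47 had the same sign and 43 were called the same way, which is another count of the same libraries and no replication. Among identifiers of the exocrine pancreas list, 20 were lower and 0 higher in the authors' deposited table, with a median log2 fold change of −2.11. They reach beyond the genes with junction reads, with zgc:136461 (ctrb.2, a chymotrypsinogen) at −4.76, CELA1 (7 of 7) at −4.45 and ERP27 at −2.47 in the authors' deposited table. The mitosis list had 4 higher and 0 lower there, with KIF14 (2 of 3) at 1.54 beside kif11, prc1b and cdkn1ba in the authors' deposited table.

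The 10 lowest genes with a symbol in the authors' deposited table also held the aldolase aldoca at −4.25 ± 0.44 and the ammonium transporter gene rh50 at −4.03 ± 0.42 (SE, deposited adjusted p = 0.0403 for both, by limma). The intestinal cyp3c4 and cyp2n13 were at −3.80 and −3.19 in the authors' deposited table. Also among the lowest 10, si:dkey-236a14.6 at −5.20 and si:ch211-113j14.2 at −4.53 in the authors' deposited table, have the names pimr140 and pimr71 in the gene name reference. The highest was U3, a small nucleolar RNA, at 7.82 ± 0.38 (SE, deposited adjusted p = 0.0115, by limma), followed by CU929219.1 at 4.29 in the authors' deposited table. Low expression occurs at both ends, since 29 of the 115 genes, 17 higher and 12 lower, fall below 0 for average log2 expression by the authors' deposited table, among them U3 at −3.90 and cth1 at −3.09.

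Some named genes in the authors' deposited table have known roles in development. The skeletal regulator nkx3.2 was higher at 1.86, the retinal transcription factor atoh7 lower at −1.35, and the lens filament gene CU929052.1 (BFSP1 in the gene name reference) lower at −1.34 in the authors' deposited table. In the DNA repair list ungb was higher at 2.79 with an average log2 expression of −2.60, and MSH5, the meiotic partner of msh4, was higher at 1.90 ± 0.12 by the authors' deposited table (SE, adjusted p = 0.0212, by limma). The average log2 expression of MSH5 there was 0.19. By junction reads MSH5 was at 1.73 ± 0.52 without passing the test (SE, limma adjusted p = 0.118). atoh7 and MSH5 were picked here after their values were seen.

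**Figure D5:**
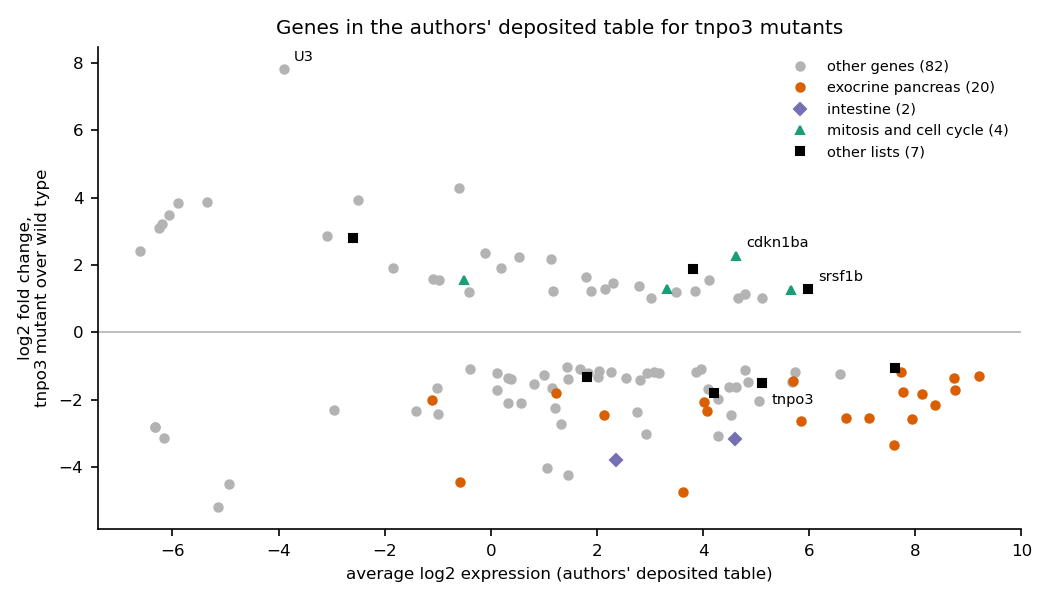
Log2 fold change of tnpo3 mutants over wild type against average log2 expression for the 115 genes of the authors' deposited table, with colours for the gene lists and the number of genes in brackets. The 20 exocrine pancreas genes all lie below 0, the 4 mitosis genes above it, and U3, the largest absolute change at 7.82, lies at an average log2 expression of −3.90.

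The tnpo3 mutants also differed from the lsm8 and snapc3 mutants in exon inclusion, in both directions. The lsm8 libraries (lsm8-/-, mixed background B) and snapc3 libraries (snapc3-/-, mixed background A), 3 each, share the controls with tnpo3 mutants, so that only the direct contrast of mutant with mutant was tested. Over 12937 exons found in all 3 tables, 164 were lower in tnpo3 mutants than in lsm8 mutants (1.27%) and 113 higher (0.873%), while 202 were lower than in snapc3 mutants (1.56%) and 83 higher (0.642%).

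Values of exons named above are given for all groups as a description, since these exons were chosen for their inclusion in the same tnpo3 libraries. The srsf3a exon was at 3.16% ± 0.735 in tnpo3 mutants, 10.3% ± 0.956 in lsm8 mutants, 16.8% ± 2.51 in snapc3 mutants and 18.1% ± 2.42 in controls (SD, n = 3 each). The crygmxl2 exon was at 73.1% ± 4.88 in tnpo3 mutants, against 99.9% ± 0.124 in lsm8 and 100% ± 0 in snapc3 mutants. The rsrc1 exon was at 72.1% ± 1.74 in tnpo3 mutants and 100% ± 0 in both other mutants. The cherp exon was at 84.3% ± 1.55 in tnpo3 mutants, 54.3% ± 3.70 in lsm8 mutants, 47.2% ± 2.61 in snapc3 mutants and 40.8% ± 9.81 in controls. The pspc1 exon was at 88.1% ± 4.92 in tnpo3 mutants, 94.1% ± 3.50 in lsm8 mutants, 99.5% ± 0.484 in snapc3 mutants and 98.7% ± 0.612 in controls.

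The authors' deposited tables for the 3 mutants share the control libraries and are given side by side only. The elastase ela2 was at a log2 fold change of −3.36 in the tnpo3 table, −4.64 in the lsm8 table and −4.38 in the snapc3 table, amy2a at −2.55, −4.37 and −5.10, and cyp3c4 at −3.80, −2.70 and −2.53 in the authors' deposited tables. The genes srsf1b, kif11, prc1b and cdkn1ba have an entry in the tnpo3 one of the authors' deposited tables and in neither other table, which does not show that they are unchanged there.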

How the data were processed

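Per the submitters' processing notes, the build was Zv9 and the tools named are limma 3.26.3, featureCounts 1.4.5-p1, Bowtie2 2.2.3 and TopHat2 2.0.13. How junction reads were counted is not given in the sources used. The deposited event tables hold, per event, 3 junction-read counts of each form and group packed into 1 cell, an FDR (an adjusted p-value), and the authors' inclusion fraction and its difference, which runs control minus mutant. The deposited gene tables hold the authors' log2 fold change, average log2 expression, p-value and test score.

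Inclusion was recomputed per library from the counts and both form lengths, and all differences here are mutant minus control. Exons and introns averaging 10 or more reads a library, with each form read at least 1 time, were tested with limma 3.58.1 (robust, in R 4.3.3) on the log2 ratio of both forms with 0.5 added. P-values were adjusted by Benjamini-Hochberg over each whole table. The variance trend ran against mean reads. It was chosen after real calls and simulated data had been seen, because it made fewer false calls on the simulated data. A trend against the mean log2 ratio called 591 exons. Junction reads summed per gene, for genes with at least 10 reads in at least 3 libraries, were scaled by median-of-ratios size factors and tested with limma on log2 CPM (prior 0.5). The packed cells could not be declared as counts, so limma took the place of the negative binomial count model that had been planned. Single values were compared by exact permutation over libraries.

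Genes and exons were named by rules on size and lists, and the members and lists were chosen with earlier results of these data known. Columns give libraries by position only, so a position is not tied to a replicate number or strain background. Control counts were identical in the tables of all mutants for the events they share. Alternatives were another pseudocount, read minimum, minimum difference, scaling, model, all groups in the fit, and each library left out. No sequences were used here.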

Additional observations from a re-analysis of the deposited data

How the results depend on the processing

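The direction of exon skipping held in every alternative that made calls, but the number of exons called moved. It was 838 with the deposited FDR (102 higher), 1609 with no minimum difference (1578 lower and 31 higher), 214 with 20 points (209 lower and 5 higher), 229 with all groups in the fit (220 lower) and 0 with the quasi-binomial model (0 lower and 0 higher). Exons that rose numbered 30 with a pseudocount of 2 and 31 with the trend against the mean log2 ratio. With 1 library left out, 377 to 445 exons were called, 369 to 435 lower and 6 to 14 higher, and the difference of mean inclusion was −1.84 to −1.79 points. Of 51 named exons, 17 kept their call whichever library was left out and 4 lost it each time. Introns called numbered 31 with the deposited FDR, 1 with a pseudocount of 2, 1 with all groups in the fit and 0 to 1 with 1 library left out. The difference of mean retention was then −1.12 to −0.53 points. Genes called by junction reads numbered 370 with no minimum fold (253 lower and 117 higher) and 76 to 166 with 1 library left out (64 to 112 lower and 11 to 54 higher). The sign turned for 2 cyp3c4 exons without the tnpo3 mutant library in position 3 (ranges −39.3 to 0.698 and −20.9 to 1.37 points), for srsf6a without position 1 of either group (−0.0807 to 0.198 on log2) and for lim2.5 junction reads without the control library in position 3 (−0.0164 to 0.693). The authors' deposited table kept 29 genes at an adjusted p below 0.03 (21 lower and 8 higher), 48 at a log2 fold change of 2 or more either way (33 lower and 15 higher), and 21 higher at an average log2 expression of at least 0. With a pseudocount of 2, an alternative added after seeing the data, 269 exons were lower in tnpo3 than in lsm8 mutants and 312 lower than in snapc3 mutants. The cause of these shifts was not tested. The negative binomial alternatives were not run. No paired analysis was possible because the columns carry no replicate numbers. The exons that fell had a median of 103 reads per library, against 173.8 over all tested exons.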

Other observations

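The exons that fell in tnpo3 mutants were spread over all chromosomes in unequal shares. On chromosome 1, 53 of 1373 tested exons fell (3.86%, in 39 genes), on chromosome 25, 24 of 803 (2.99%), and on chromosome 17, 28 of 1140 (2.46%). Chromosome 4, which holds tnpo3, had 10 of 723 (1.38%), and chromosome 11 had 8 of 912 (0.877%). These shares were not tested against each other.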
